A study of Mus musculus with 12 samples.

Results

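Interferon-stimulated genes are the genes that cells switch on when an interferon binds its receptor, and 43 of them were examined in cultured mouse female germline stem cells (FGSCs) in which *Stella* (listed as Dppa3) had been deleted or overexpressed. The members were written down by symbol and found by matching each RefSeq accession of the count table to its symbol. All 43 had a listed transcript, among 24813 genes in the table. RNA-seq had been performed on 12 libraries in 4 groups of 3. KO was a CRISPR *Stella*-knockout line, a single clone picked at random, and KO-con was its knockout control, whose vector the sources used here do not describe. Over was a *Stella*-overexpressing line made by lentiviral infection and puromycin selection, and Over-con carried the empty lentiviral vector. All 4 groups shared the C57BL/6 strain, more than 20 passages, STO fibroblast feeders, the same medium with serum and growth factors, and a stranded mRNA kit. Nothing in the labels says that the 3 libraries of a group came from separate cultures, so the p-values measure the spread between these libraries, which may be technical.

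Type I interferons signal through a receptor whose kinases activate a transcription factor complex that contains STAT2 and IRF9 and binds a short element, the interferon-stimulated response element (ISRE). Interferon gamma acts through a separate receptor, and many of its target genes carry another element, the gamma-activated site (GAS). The induced genes encode sensors of foreign RNA, proteins that block viral translation or replication, ubiquitin-like modifiers, chemokines, GTPases that attack intracellular pathogens, and subunits of the immunoproteasome that cuts peptides for antigen presentation.

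The libraries held between 5611846 and 12866545 counts. *Stella* itself had 285 to 371 counts in the Over libraries and 0 in every library of the other groups, KO-con included, so the counts check the overexpression and cannot check the knockout. Of the germline markers, *Ddx4*, *Dazl* and *Pou5f1* had at most 1 count in any library, and most of that list's summed level, 77.2 to 165 CPM (counts scaled to a common library size), was *Ifitm3*, which is itself interferon-stimulated. Summed mast cell markers lay at 1147 to 1228 CPM in KO and 367 to 427 CPM in KO-con. Over lay at 641 to 666 CPM and Over-con at 753 to 864 CPM, nearly all of it *Cpa3*, a mast cell protease. The mast cell receptor genes *Kit*, *Fcer1a* and *Ms4a2* had at most 3 counts in every library. Several transcripts were listed for *Ddx4*, *Dazl*, *Pou5f1* and *Kit* (2 each) and for *Ms4a2* (4). The low values of these markers with several transcripts are not read here as low expression, for the reason given below for the members. That reason does not cover *Fcer1a*, which had 1 listed transcript and 0 counts in every library. Summed fibroblast markers ranged from 1061 to 1848 CPM, leukocyte markers from 787 to 1149 CPM, and macrophage markers from 34.0 to 56.1 CPM. In bulk RNA, fewer cells of a type and less RNA per cell cannot be told apart.

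Which members could be measured went with how many transcripts the table listed for them. Of the 27 members with 1 listed transcript, 25 passed the filter on low counts in the knockout comparison, against 6 of the 16 members with 2 or more listed transcripts. The 12 members that did not pass were *Irf9* (at most 9 counts in a library), *Irf1* (8), *Ifih1* (7), *Mx1* (4), *Ifi47* (3), *Gbp3* (3), *Adar* (2), *Oas2* (1), and *Irf7*, *Oasl1*, *Mx2* and *Tap1*, which were listed at 0 in all 12 libraries. With the counts of all listed transcripts summed per gene, 31 members again passed the filter. Low values of members with several transcripts are therefore not read here as low expression, and the cause was not tested. *Mx1* and *Mx2* had 1 listed transcript each, so this does not cover them.

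Upstream sequence was searched for the elements through which interferons act. The 250 bases before the annotated start were taken from RefSeq promoters of GRCm38.p6, in which 34 of the 43 members were found. The ISRE core GAAANNGAAA, searched on both strands, was in the window of 14 of these 34 members (41.2%), against 936 of 27025 genes (3.46%) and 978 of 32851 promoters (2.98%). The GAS core TTCNNNGAA was in 7 of 34 members (20.6%), against 8.13% of genes and 7.02% of promoters. The windows of *Cxcl10*, *Rsad2*, *Ifit1* and *Gbp2* are shown because these genes carry the comparisons that follow and each window holds the ISRE core. Each runs 5′ to 3′ toward the start, and capitals mark the ISRE core on either strand.
*Cxcl10* (chr5:92348890-92349139, minus strand): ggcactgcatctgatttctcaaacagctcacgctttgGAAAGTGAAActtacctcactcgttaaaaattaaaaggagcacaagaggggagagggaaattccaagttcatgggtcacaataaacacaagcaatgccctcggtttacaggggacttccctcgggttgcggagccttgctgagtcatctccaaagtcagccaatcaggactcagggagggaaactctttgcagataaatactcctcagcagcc
*Rsad2* (chr12:26456453-26456702, minus strand): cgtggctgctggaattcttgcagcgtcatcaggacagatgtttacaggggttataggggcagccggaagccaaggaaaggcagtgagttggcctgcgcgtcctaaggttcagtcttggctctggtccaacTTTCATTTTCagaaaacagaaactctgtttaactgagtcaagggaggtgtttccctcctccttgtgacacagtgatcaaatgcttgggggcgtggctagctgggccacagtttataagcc
*Ifit1* (chr19:34640639-34640888, plus strand): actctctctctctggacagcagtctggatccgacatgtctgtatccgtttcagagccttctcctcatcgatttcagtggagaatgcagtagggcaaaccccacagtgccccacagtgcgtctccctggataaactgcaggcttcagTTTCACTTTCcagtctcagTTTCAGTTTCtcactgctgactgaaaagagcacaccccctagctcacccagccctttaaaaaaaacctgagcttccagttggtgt
*Gbp2* (chr3:142620413-142620662, plus strand): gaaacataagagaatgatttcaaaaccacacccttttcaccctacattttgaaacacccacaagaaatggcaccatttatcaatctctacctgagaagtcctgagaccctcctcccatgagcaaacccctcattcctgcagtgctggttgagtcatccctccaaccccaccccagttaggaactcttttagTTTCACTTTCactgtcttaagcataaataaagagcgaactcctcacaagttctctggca
The core began 213 bases before the start in *Cxcl10*, 120 bases in *Rsad2* and 59 bases in *Gbp2*. *Ifit1* held 2 copies, at 104 and 85 bases. The windows of *Psmb9* and *Ddx58*, which also passed in a comparison, held neither core, *Dhx58* was not among the 34, and that of *Cmpk2*, which lies next to *Rsad2*, held none either. A match is a run of letters and does not show that a factor bound there.

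The members were transcribed at very different levels. Over the 12 libraries the highest mean levels were 201 CPM for *Psmb8*, an immunoproteasome subunit, 196 CPM for *Ddx58*, the RNA sensor RIG-I, and 171 CPM for *Stat2*. *Eif2ak2*, the kinase PKR that stops translation on double-stranded RNA, followed at 98.5 CPM and *Bst2*, the tetherin that holds budding virions at the membrane, at 92.2 CPM. These members made up 15.2%, 14.8%, 12.94%, 7.46% and 6.98% of the summed level of all 43. Per kilobase of exon, the order changed, and *Bst2* was first at 121 CPM per kilobase, followed by *Psmb8* at 73.6, *Stat2* at 38.8 and *Isg15*, the ubiquitin-like modifier, at 33.8. The members summed to 1253 ± 45.5 CPM in KO (SD, n = 3) and 1297 ± 10.3 CPM in KO-con. They summed to 1298 ± 16.2 CPM in Over and 1438 ± 32.9 CPM in Over-con. The Over-con libraries, at 1404 to 1470 CPM, lay above all 9 others, which lay at 1210 to 1308 CPM.

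The first question was whether losing *Stella* changed these genes. In KO against KO-con, 5 of the 31 members tested passed an adjusted p of 0.05 (16.1%), and 11.8% of all 9457 transcripts tested did so. *Cxcl10*, *Rsad2* and *Ifit1* fell and *Dhx58* and *Psmb9* rose, where 5.96% of all transcripts tested fell and 5.83% rose. *Cxcl10* and *Rsad2* also passed an absolute log2 fold change of 1, as 1.7% of all transcripts did.

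*Cxcl10* (mm9 chr5:92775664-92777915) encodes a chemokine that draws activated T cells through the receptor CXCR3. Its level was 6.58, 5.73 and 6.00 CPM in the KO libraries and 16.5, 22.6 and 28.4 CPM in the KO-con libraries, on 57 to 66 and 159 to 252 counts. The groups did not overlap, and the KO-con libraries were also above all Over libraries (6.39, 8.90 and 6.96 CPM) and all Over-con libraries (7.19, 8.99 and 5.74 CPM). The log2 fold change of KO against KO-con was -1.87 (SE 0.19, adjusted p = 8.35e-06, edgeR's quasi-likelihood test with Benjamini-Hochberg adjustment). Set against Over-con instead, the KO libraries differed in *Cxcl10* by -0.23 on the log2 scale (SE 0.21, adjusted p = 0.622), so the call depended on which control was used.

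*Rsad2* (mm9 chr12:27127618-27141317) encodes viperin, an enzyme that makes a chain-terminating nucleotide. It stood at 1.96, 1.13 and 1.27 CPM in KO, on 13 to 17 counts, and at 5.49, 5.38 and 6.80 CPM in KO-con, on 53 to 60 counts. Here the KO libraries were the ones that stood apart, since Over lay at 7.51, 5.29 and 6.11 CPM and Over-con at 7.80, 6.17 and 4.08 CPM. The log2 fold change was -2.03 (SE 0.27, adjusted p = 0.000137), and against Over-con it was -2.06 (SE 0.32, adjusted p = 0.000870). Its neighbour *Cmpk2*, a mitochondrial nucleotide kinase, starts 12751 bases away on chromosome 12, in the other direction (mm9). *Cmpk2* had a log2 fold change of 1.12 with an SE of 0.50 (adjusted p = 0.168), at 0.121 to 1.65 CPM in these 6 libraries. The KO-con library with 0.121 CPM had 1 count.

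*Ifit1* (mm9 chr19:34715361-34724499), which binds RNA lacking the cap methylation of host messages, fell less. Its levels were 43.8, 42.8 and 34.9 CPM in KO and 49.4, 51.2 and 57.4 CPM in KO-con, with no overlap (log2 fold change -0.37, SE 0.10, adjusted p = 0.0289). Both groups lay mostly above Over (30.5, 29.5 and 31.2 CPM) and Over-con (36.2, 35.4 and 23.1 CPM), and against Over-con the value turned to 0.37 (adjusted p = 0.209). *Dhx58* (mm9 chr11:100556018-100565585), the RIG-I-like receptor LGP2, was 10.96, 13.2 and 7.82 CPM in KO and 6.42, 6.90 and 7.28 CPM in KO-con. Its log2 fold change was 0.64 (SE 0.19, adjusted p = 0.0422), and the third KO library lay close to the controls. *Psmb9*, an immunoproteasome subunit, was 17.4, 19.9 and 19.8 CPM in KO and 12.8, 14.6 and 15.5 CPM in KO-con, again with no overlap (log2 fold change 0.42, SE 0.13, adjusted p = 0.0442). The KO-con libraries were lower in *Psmb9* than all 9 others, and against Over-con the KO value was -0.33 (adjusted p = 0.255). Against Over-con, *Dhx58* was at 0.59 (adjusted p = 0.125). *Ifit1*, *Dhx58* and *Psmb9* each lost their call when any 1 of the 3 KO-con libraries or the second KO library was left out, *Ifit1* and *Psmb9* also without the third KO library, and *Psmb9* with DESeq2 as the test (adjusted p = 0.0747). The share of all transcripts that passed also fell without 1 KO-con library or the second KO library, from 11.8% to between 6.23% and 7.51%. Without the third KO library it was 11.8%.

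**Figure D1:**
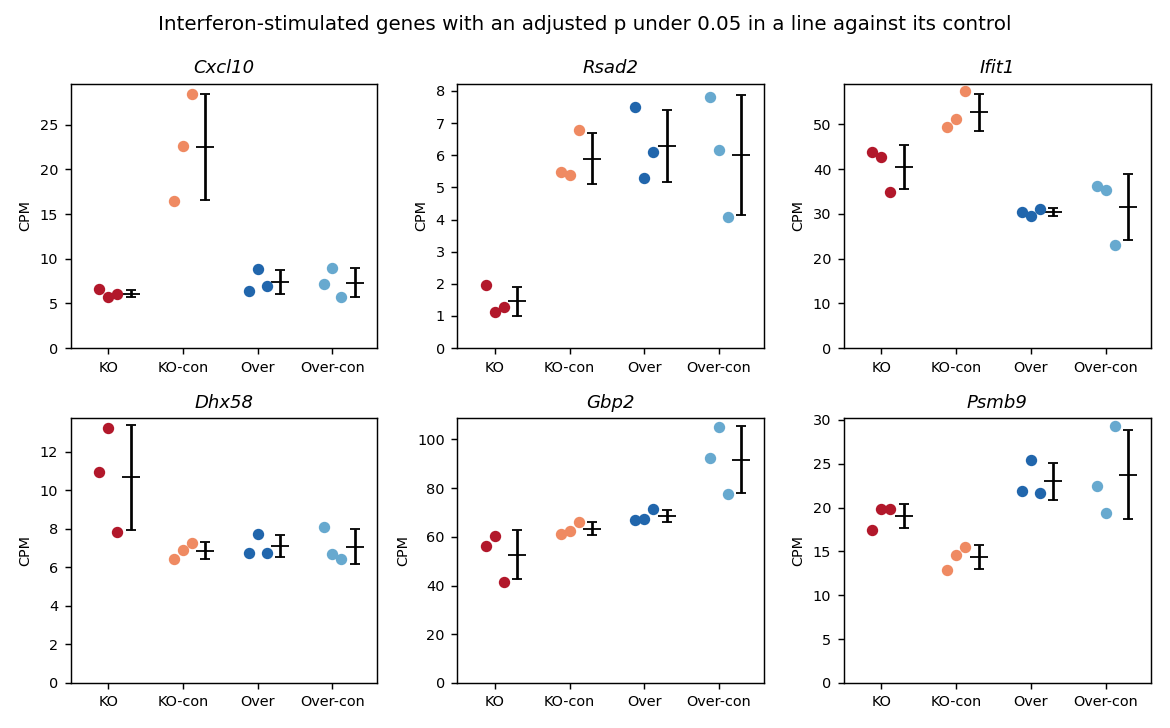
Level in CPM (vertical axes, starting at 0) of the 6 members that passed an adjusted p of 0.05 in a line against its own control. Points are the 12 libraries by group, the short line is the mean and the bar its SD. *Cxcl10* is high in KO-con, at 16.5 to 28.4 CPM, and *Rsad2* is low in KO, at 1.13 to 1.96 CPM.

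The other 26 tested members did not pass in the knockout comparison. Among the antiviral effectors, *Oas3*, which makes the 2-5A second messenger, had the lowest value at -1.35 (SE 0.43, adjusted p = 0.0515), on 5 to 11 counts in KO and 12 to 23 in KO-con. *Ifit3* was at -0.38 (adjusted p = 0.0945) and *Zbp1*, a sensor of Z-form nucleic acid, at -0.46 (adjusted p = 0.155). The most abundant members differed little. *Psmb8* had a log2 fold change of 0.14 (SE 0.08, adjusted p = 0.328), *Ddx58* 0.03 (SE 0.07, adjusted p = 0.857) and *Stat2* -0.12 (SE 0.08, adjusted p = 0.346). The 26 ranged from -1.35 for *Oas3* to 1.12 for *Cmpk2*. They held the RNA-binding *Ifit2* (0.36) and the modifier *Isg15* (-0.26) with its protease *Usp18* (-0.07), the 2-5A synthetase *Oas1a* (0.07) and its relative *Oasl2* (-0.36), the GTPases *Gbp2* (-0.26), *Igtp* (-0.22) and *Irgm1* (-0.16), and the ubiquitin ligases *Herc6* (0.21), *Dtx3l* (0.05) and *Trim30a* (-0.28). *Bst2*, *Eif2ak2*, *Parp9*, *Parp14*, *Ifi35*, *Ifi44*, *Rtp4* and *Xaf1* lay between -0.25 and 0.10. Of the 31 tested members, 12 had a positive and 19 a negative value, with a median of -0.12 against 0.01 for all transcripts tested. The ranges of KO and KO-con were separate for 14 members, and for 30.5% of all transcripts tested. The mast cell markers moved with this comparison, since *Cpa3*, *Cma1* and *Hdc*, the 3 of 8 that could be tested, all rose (log2 fold changes 1.55, 1.79 and 1.30), and the macrophage marker *Cd68* rose by 0.48 on the log2 scale. The fibroblast marker *Fbn1* rose by 0.45, while *Pdgfra*, another, fell by 1.56, the leukocyte marker *Cd48* by 6.02 and the germline marker *Prdm1* by 2.48. *Cd48* had 0 to 1 counts in KO and 20 to 37 in KO-con, and *Prdm1* had 2 to 5 and 14 to 21. KO-con was the high group in *Prdm1*, while KO was the low group in *Cd48* and *Pdgfra*. The other 4 leukocyte markers tested had positive values, of 0.02 to 0.55, and did not pass. The part of these markers in the values of the members was not tested.

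**Figure D2:**
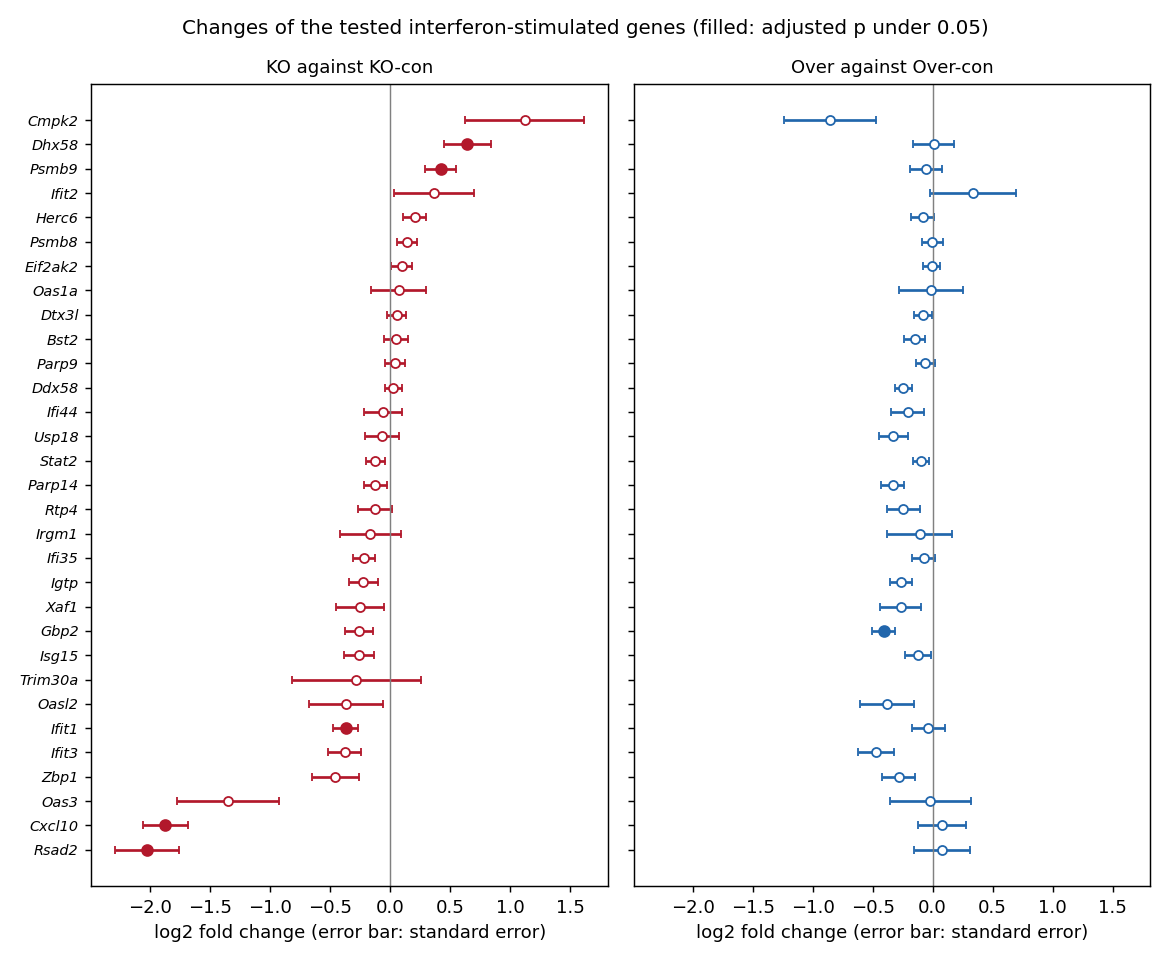
Log2 fold change with its standard error (horizontal axes) of each tested member in KO against KO-con (left) and Over against Over-con (right), ordered by the knockout value, with filled points at an adjusted p under 0.05. *Cxcl10* and *Rsad2* lie near -2 on the left and near 0 on the right, and 26 of the 30 members on the right lie below 0.

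The second question was whether raising *Stella* changed them. In Over against Over-con, 1 of the 30 members tested passed (3.33%), where 1.65% of all 9401 transcripts tested did (0.766% rose and 0.883% fell). This was *Gbp2* (mm9 chr3:142283566-142300972), a guanylate-binding GTPase that coats pathogen-containing vacuoles. Its level was 66.7, 67.3 and 71.3 CPM in Over and 92.4, 105 and 77.6 CPM in Over-con, without overlap, and it fell by 0.41 on the log2 scale (SE 0.10, adjusted p = 0.0448). KO-con lay at 61.2 to 66.3 CPM and KO at 41.4 to 60.5 CPM, so that Over-con was the highest of the 4 groups. No member passed both an adjusted p of 0.05 and an absolute log2 fold change of 1, as 0.17% of all transcripts did. An unadjusted p under 0.05 was found for 7 members. The share of all transcripts at that cutoff was not computed, here or for the lists below, so such counts are not read as a result. *Gbp2* lost its call when any of 5 of the 6 libraries was left out. In these 5 settings its log2 fold change was -0.43 to -0.30. The share of all transcripts that passed fell there as well, from 1.65% to between 0.493% and 0.927%. Without the third Over-con library, *Gbp2* kept its call at -0.51, and *Ifit3* (-0.63), *Ddx58* (-0.30) and *Parp14* (-0.42), an ADP-ribosyltransferase, passed too, while the share of all transcripts that passed rose from 1.65% to 7.49%. That library differed more from the other Over-con libraries than they did from each other, at chi-square values of 8.35 and 9.36 per degree of freedom against 4.37. Pairs within KO lay at 6.15 to 12.3, within KO-con at 3.48 to 4.68 and within Over at 1.93 to 4.15.

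*Trim30a* did not pass the filter here. Of the 30 values, which ranged from -0.86 for *Cmpk2* to 0.34 for *Ifit2*, 26 were negative, with a median of -0.10 against -0.001 for all transcripts tested. Over and Over-con did not overlap for 10 members, a pattern found in 19.3% of all transcripts tested. *Usp18*, the protease that removes ISG15, was 12.3 to 14.8 CPM in Over and 17.2 to 17.9 CPM in Over-con (log2 fold change -0.33, SE 0.12, adjusted p = 0.245). *Igtp*, an immunity-related GTPase, was 25.3 ± 0.39 CPM in Over (SD, n = 3) and 30.5 ± 0.52 CPM in Over-con, without overlap (log2 fold change -0.26, SE 0.09, adjusted p = 0.213). Measured against KO-con instead, 15 members were positive and 14 negative, and the median was 0.01. The fibroblast markers moved in the same direction as the members, with all 8 tested markers negative and summed levels of 1466 to 1526 CPM in Over and 1678 to 1848 CPM in Over-con. Of these markers, *Fbn1* passed the test (-0.38). Summed leukocyte markers were also lower, at 886 to 962 CPM against 1044 to 1149 CPM, mostly through *Laptm5* (825 to 888 against 972 to 1059 CPM). Of the 5 leukocyte markers tested, 3 were negative and 2 positive, and none passed. The mast cell marker *Cpa3* fell by 0.30, while *Hdc*, the other mast cell marker tested, was at 0.82 and did not pass. The macrophage marker *Cd68* rose by 0.51 on the log2 scale. The part of these markers in the members' values was not tested.

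Neither control line is described as carrying a *Stella* change, so the difference between them gives a yardstick for differences between lines. In KO-con against Over-con, 5 of the 31 members tested passed (16.1%), and 16.3% of all 9321 transcripts did (8.08% higher and 8.19% lower). *Cxcl10* was higher in KO-con by 1.66 on the log2 scale (SE 0.19, adjusted p = 3.43e-06) and *Ifit1* by 0.76 (SE 0.13, adjusted p = 0.000338). *Psmb9* was at -0.74 (SE 0.15, adjusted p = 0.0012), *Gbp2* at -0.52 (SE 0.10, adjusted p = 0.000829) and *Ddx58* at -0.33 (SE 0.08, adjusted p = 0.00824). The values of *Cxcl10*, *Ifit1* and *Psmb9* between the control lines were similar in size to, or larger than, those between KO and KO-con. *Rsad2* did not show this, at -0.02 (SE 0.23, adjusted p = 0.963). Of the 31 members, 23 were negative, with a median of -0.14, and 16 did not overlap (32.1% of all transcripts tested).

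**Figure D3:**
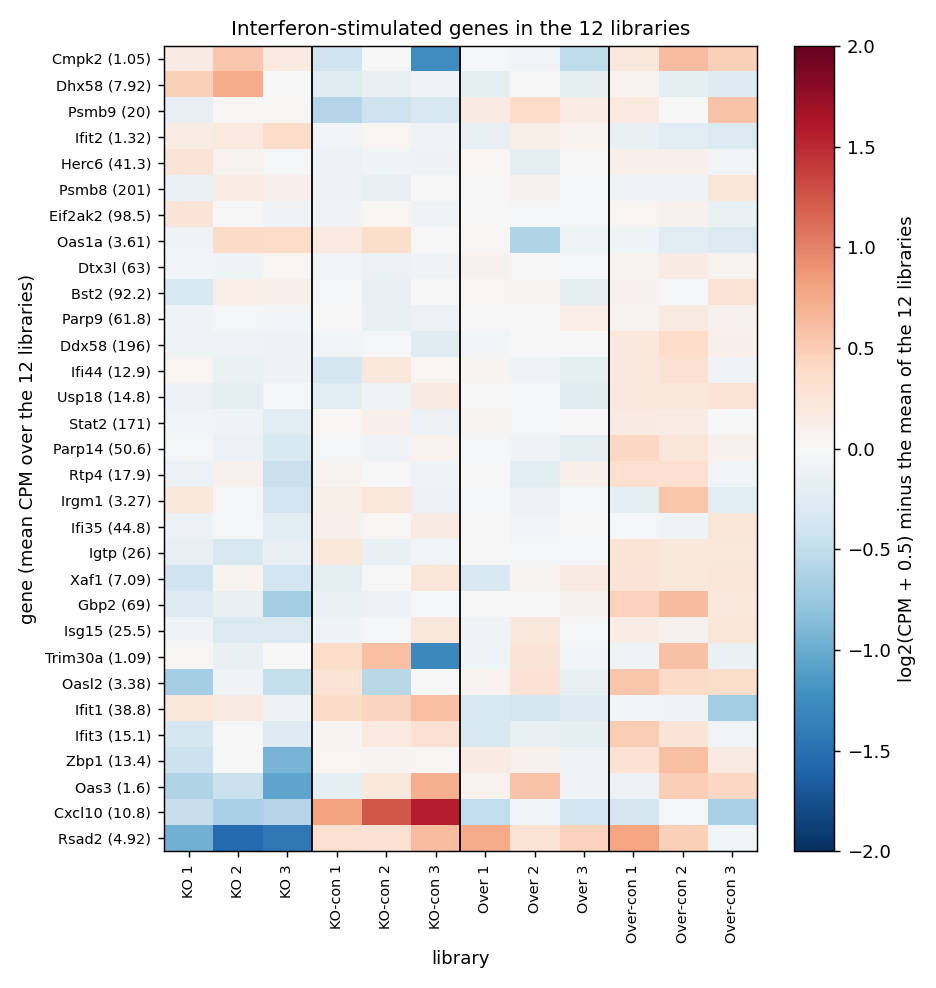
Level of each of the 31 members tested in the knockout comparison (vertical axis, with the mean CPM over the 12 libraries) in each library (horizontal axis), as log2(CPM + 0.5) minus the member's mean over the 12 libraries. The *Cxcl10* row is high in the KO-con columns, the *Rsad2* row is low in the KO columns, and many rows are highest in the Over-con columns.

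With the other control in place, which reuses the same libraries, the members that passed were mostly different ones. KO against Over-con gave 7 of 30 members (23.3%), all lower, where 7.87% of all transcripts tested passed, and 1 of the 7, *Rsad2*, had passed against KO-con. The others were *Gbp2* (-0.79, adjusted p = 0.00243), *Igtp* (-0.46, adjusted p = 0.019), *Ddx58* (-0.32, adjusted p = 0.0331), *Zbp1* (-0.79, adjusted p = 0.0398), *Parp14* (-0.40, adjusted p = 0.0408) and *Oasl2* (-0.94, adjusted p = 0.0426). Over against KO-con gave 4 of 30 members (13.3%), where 21.5% of all transcripts tested passed, namely *Cxcl10* (-1.57), *Ifit1* (-0.79), *Ifit3* (-0.41) and *Psmb9* (0.69), and *Gbp2* was not among them.

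Whether the effect of the knockout differed from that of overexpression was tested with all 12 libraries in 1 fit. For 2 of 31 members it did (6.45%), against 8.64% of all 9903 transcripts tested (4.12% higher and 4.52% lower). The knockout effect on *Cxcl10* was lower than the overexpression effect by 1.95 on the log2 scale (-1.95, adjusted p = 0.000186), and that on *Rsad2* by 2.10 (-2.10, adjusted p = 0.000976). For *Cmpk2* the difference was 1.99 (adjusted p = 0.0578). *Gbp2* did not pass, at 0.15 (adjusted p = 0.666), so its change in Over was not shown to differ from its value in KO. The difference in *Cxcl10* contains the KO-con level described above.

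The other genes of the pathway were read from lists of ligands, receptors, sensors, inhibitors, further targets and antigen presentation genes. None of the 12 interferon genes could be tested. Of these, 6 were at 0 in all libraries, which allows up to 3 counts in each (counting error only), and the highest counts were 6 for *Ifne* and 4 for *Ifng*. Of 16 receptor and transducer genes, 7 were tested in KO against KO-con and 1 passed (14.3%, against 11.8% of all transcripts tested). This was *Ifngr2*, a chain of the interferon gamma receptor, which fell by 0.30 (SE 0.07, adjusted p = 0.0147). KO-con was the high group in *Ifngr2*, at 139 to 159 CPM, with KO at 115 to 127, Over at 102 to 112 and Over-con at 118 to 121 CPM. *Ifnar1*, a chain of the type I receptor, was at -0.15 (SE 0.07, adjusted p = 0.219), and *Jak1*, the kinase shared by both receptors, at -0.01 (adjusted p = 0.972). Of 14 sensors and adaptors, 8 were tested and 1 passed (12.5%, against the same 11.8%). This was *Nlrc5*, a transactivator of MHC class I genes, which fell by 0.42 (SE 0.10, adjusted p = 0.0108). KO was the low group in *Nlrc5*, at 39.4 to 45.1 CPM. KO-con lay at 51.2 to 63.3, Over at 72.8 to 74.1 and Over-con at 70.0 to 75.8 CPM.

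The feedback inhibitors held a larger change. *Socs3*, a suppressor of cytokine receptor kinases, was 156, 176 and 127 CPM in KO and 302, 276 and 292 CPM in KO-con. The KO libraries were below all 9 others, with Over at 244 to 272 CPM and Over-con at 244 to 285 CPM, and the log2 fold change was -0.92 (SE 0.10, adjusted p = 1.25e-05). *Ptpn1*, a phosphatase that acts on JAK kinases, was 91.8 to 109 CPM in KO and 127 to 135 CPM in KO-con and fell by 0.37 (adjusted p = 0.00593). KO-con stood above the other groups in *Ptpn1*, with Over at 99.4 to 111 CPM and Over-con at 96.5 to 107 CPM. These 2 were 28.6% of the 7 tested inhibitors, against 11.8% of all transcripts tested, and the other 5 did not pass. In Over against Over-con, no inhibitor passed, and none had an unadjusted p under 0.05. The difference between the effects passed for *Socs3* (-0.95, adjusted p = 9.83e-05) and *Ptpn1* (-0.39, adjusted p = 0.0253), 28.6% of the inhibitors tested, against 8.64% of all transcripts tested. The difference in *Ptpn1* contains its high KO-con level.

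Among 56 further interferon-stimulated genes, 32 were tested in the knockout comparison and 3 passed, all lower (9.38%, against 11.8% of all transcripts tested). *Slfn2*, a Schlafen family member needed for T cell quiescence, was 6.81, 7.21 and 7.36 CPM in KO and 14.7, 14.6 and 10.7 CPM in KO-con, and fell by 0.90 (SE 0.17, adjusted p = 0.00199). As with *Cxcl10*, KO-con stood above the other lines, with Over at 4.50 to 5.83 CPM and Over-con at 4.47 to 4.94 CPM. *Slfn5* fell by 0.34 (adjusted p = 0.0103) and *Ifitm2*, which blocks viral entry, by 0.29 (adjusted p = 0.032). KO-con was the high group in *Slfn5* too, at 146 to 173 CPM, with KO at 118 to 132, Over at 125 to 144 and Over-con at 126 to 143 CPM. In *Ifitm2*, KO was the low group, at 133 to 165 CPM. KO-con lay at 180 to 193, Over at 190 to 206 and Over-con at 185 to 220 CPM. The median of the 32 was -0.05. In Over against Over-con, 1 of 31 passed (3.23%, against 1.65% of all transcripts tested). This was *Ifitm3*, which fell by 0.31 (SE 0.07, adjusted p = 0.0396), and 25 of the 31 values were negative with a median of -0.15. Of the 9 antigen presentation genes tested out of 17, 2 passed in KO (22.2%, against 11.8% of all transcripts tested). These were the class I genes *H2-Q4* (-0.41, adjusted p = 0.00233) and *H2-D1* (-0.32, adjusted p = 0.0308), and both fell. KO was the low group in both, at 63.7 to 69.4 CPM for *H2-Q4* and 118 to 134 CPM for *H2-D1*. The libraries of the other groups lay at 83.9 to 97.0 CPM and 144 to 206 CPM. None of the 9 passed in Over, where 1 had an unadjusted p under 0.05. The receptor and sensor lists held no gene that passed in Over either, with 2 and 0 genes at an unadjusted p under 0.05. The knockout and overexpression effects also differed for *Nlrc5*, *Slfn2*, *Slfn5* and *H2-Q4* (-0.42, -1.02, -0.37 and -0.32) and for *Tor3a* and the peptide transporter subunit *Tap2* (0.44 and 0.31). These were 12.5% of the sensors tested, 8.82% of the further genes and 22.2% of the antigen presentation genes, against 8.64% of all transcripts tested. Between the control lines, 9 of the 32 further genes passed (28.1%, against 16.3% of all transcripts tested), among them *Slfn2* (2.83-fold), *Cd274* (1.34-fold) and *Slfn3* (1.39-fold), which were higher in KO-con, and *Ifi205* (0.404-fold), *Casp4* (0.767-fold) and *Tnfsf10* (0.373-fold), which were lower. Of the other lists, *Ifngr2*, *Ptpn1* and *Socs1* were higher in KO-con than in Over-con (log2 fold changes 0.34, 0.36 and 1.02), and *Ifngr1*, *Nlrc5*, *Ikbke*, *H2-T23* and *Tap2* were lower (-0.25, -0.37, -0.23, -0.38 and -0.22). Per list, these were 22.2% to 28.6% of the genes tested, against 16.3% of all transcripts tested.

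**Figure D4:**
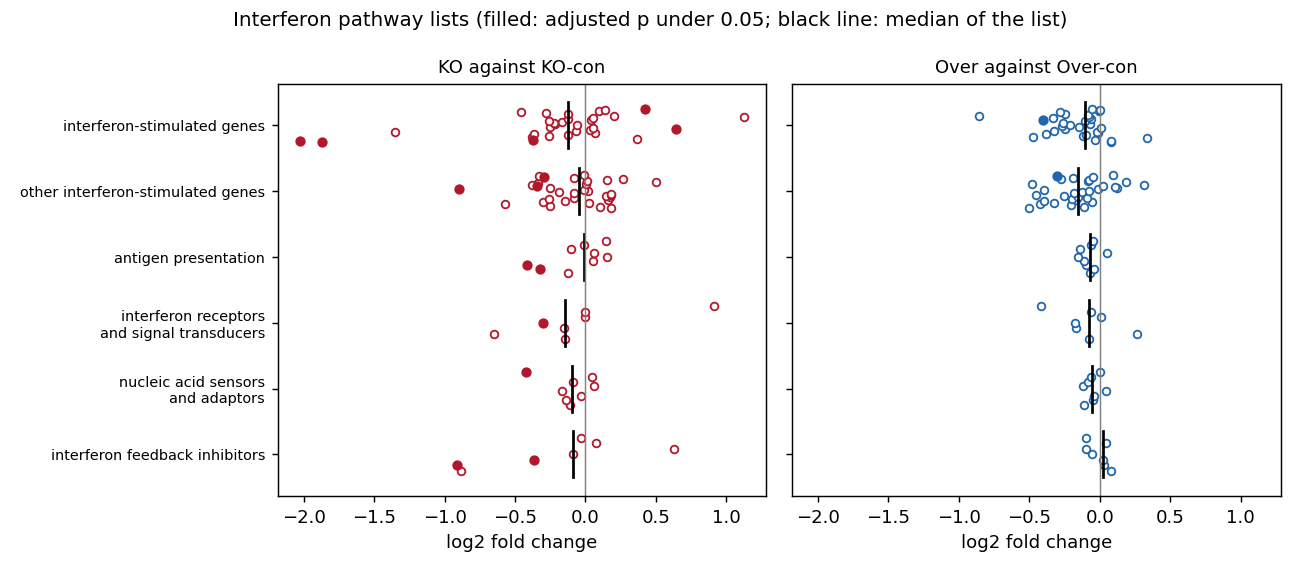
Log2 fold change (horizontal axes) of each tested gene of the members and of 5 pathway lists in KO against KO-con (left) and Over against Over-con (right). Filled points passed an adjusted p of 0.05 and black lines are list medians, which lie between -0.15 and 0.03.

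Some values could be shared between genes. The members of the Ifit, Oas, Gbp and Schlafen families resemble their neighbours, and the treatment of reads that fit several of them is not given in the sources used here. *Parp9* and *Dtx3l* overlap on opposite strands of chromosome 16 in mm9, and the strand setting of the count is not given either, so reads in the overlap cannot be assigned with certainty. *Parp9*, an ADP-ribosyltransferase, and *Dtx3l*, its ubiquitin ligase partner, were close to each other in level in every group, at 57.9 to 66.6 and 59.5 to 67.6 CPM, and neither passed in any comparison.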

How the data were processed

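RNA-seq counts of 12 mouse FGSC libraries were used, with groups and replicate numbers from the sample titles. After trimming, the authors mapped the reads onto mm9 using HISAT2 with default settings, and they deposited raw counts per RefSeq transcript, without normalization. Its file is named after featureCounts, while the strand setting, the annotation release and the handling of shared reads are not given in the sources used here. A read counted only when it belongs to 1 transcript would be lost from genes with several, which could lower those genes (not tested here).

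The members and lists were chosen with earlier results of these data known. Accessions were matched to symbols through the RefSeq table of GRCm38.p6 (41186 of 41388 transcripts), and each gene was represented by its transcript with the highest mean count. Library totals of 5611846 to 12866545 counts set the precision, and low counts, as for *Rsad2*, *Oas3* and *Cmpk2*, carry a large counting error. Floors cover counting error only. Tests used edgeR 4.0.16 (TMM, filterByExpr, glmQLFit, glmQLFTest) in R 4.3.3, on the 2 groups compared or, for the difference between effects, on all 12 libraries, with p-values adjusted by Benjamini-Hochberg across every transcript tested and a threshold of 0.05. The count that also has an absolute log2 fold change over 1 follows the rule of the study, which used DESeq2. Levels are CPM normalized by TMM over all 12 libraries. With 3 libraries against 3, a permutation test cannot go below 0.1 and was not used. Coordinates and exon lengths came from the mm9 annotation, and promoter windows from RefSeq.

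All members that passed in a line against its own control are named with every library's value, other members by counts and range with the most abundant named, untested members with their highest count, and at most 3 genes per pathway list, direction and comparison. Members that did not pass and are named with a value, *Ifnar1* and *Jak1* were named after their values were seen. Alternatives were DESeq2 1.42.0 as the test or for its size factors, no filter, counts summed per gene, the other control group, the fold change threshold, leaving out 1 library at a time, and the replicate number as a block. The fits were tested on simulated data. Figures used Python 3.11.15, pandas 2.3.3 and matplotlib 3.10.9.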

Additional observations from a re-analysis of the deposited data

Results flagged for a closer look

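For 2 members the effect of the knockout differed from that of overexpression, by the test of the difference itself with all 12 libraries in 1 fit. For *Cxcl10* the difference was -1.95 on the log2 scale (edgeR's quasi-likelihood test, adjusted p = 0.000186), with KO-con the high group among the 4. For *Rsad2* it was -2.10 (adjusted p = 0.000976), with KO the low group. Both differences kept their direction and their call under all 17 alternatives, with a range of -2.13 to -1.76 for *Cxcl10* and of -2.38 to -1.86 for *Rsad2*. None of the 17 replaced KO-con, so they cannot show whether the *Cxcl10* difference depends on that group's level. Outlying values were not looked for by Dixon's test, which was not applied to groups of 3.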

How the results depend on the processing

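In KO against KO-con, *Rsad2* passed under all 12 alternatives (-2.27 to -1.87) and *Cxcl10* under 11, all but the other control group (-0.23). The count of 5 members became 2 with the fold change threshold, 2 with the replicate block and 2 to 6 when 1 library was left out, and was 4 to 7 under the other alternatives. The share of all transcripts that passed fell from 11.8% to 8.85% with the block. Without 1 KO-con library or the second KO library that share was 6.23% to 7.51%, and 6.45% to 9.68% of the members passed. The share of all transcripts was 13% without the first KO library, 11.8% without the third and 1.7% with the fold change threshold. It was 6.26% with no filter, 7.87% with the other control group and 11.1% to 12.2% under the remaining alternatives. In Over against Over-con, the count of 1 became 0 with the fold change threshold, 0 with the replicate block, 4 with the other control group and 0 to 4 when 1 library was left out (4 without the third Over-con library, 0 without any other). There the share of all transcripts that passed moved too, from 1.65% to 21.5% with the other control group and to 7.49% without the third Over-con library. It was 0.493% to 0.927% without any other library and 0.713% with the block. The count of 5 in KO-con against Over-con ranged from 4 to 8 without 1 library (8 without the third Over-con library) and was 5 under the other alternatives run, and 1 of the 5, *Cxcl10*, had an absolute log2 fold change over 1. Over all transcripts, 9.17% to 20.8% passed there without 1 library (20.8% without the third Over-con library), against 16.3% with all libraries. That share was 7.8% with no filter and 14.9% to 17.4% under the other alternatives run. *Ddx58* lost its call there without the third KO-con library. The 2 members of the difference between effects kept their calls under all alternatives, none of which replaced a control group. In 4 settings 1 more member joined them. *Cmpk2* joined with the replicate block and without the second KO-con library, where 7.4% and 5.77% of all transcripts passed. *Dhx58* joined without the third KO library (8.24%) and *Ddx58* without the third Over-con library (11%), against 8.64% in the main fit.

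With the other control group, the log2 fold changes of *Ifit1* (0.37), *Ddx58* (-0.32) and *Psmb9* (-0.33) in KO, and of *Cxcl10* (-1.57), *Gbp2* (0.12) and *Psmb9* (0.69) in Over, turned their direction. These were members called with either control, and in all 7 of 30 members turned in KO and 13 of 29 in Over. The cause was not tested. Under DESeq2's size factors, the signs of the members' values split as with TMM, 12 positive and 19 negative in KO and 4 and 26 in Over.

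Libraries of 1 number did not deviate together (correlations of -0.15 to 0.06 over 9 pairs). For libraries of unlike number the correlations were -0.10 to 0.12. The labels do not say whether libraries of 1 number were prepared together, and this check cannot settle it. Beside the counts above, the block took the calls of *Ifit1* (adjusted p = 0.0536), *Dhx58* (0.0576) and *Psmb9* in KO and of *Gbp2* in Over (0.115). Counts below about 20, as in *Rsad2* in KO, *Oas3* and *Cmpk2*, limit what could be detected.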
